A study of Mus musculus with 12 samples.

Results

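Activated endothelium was followed in whole mouse spinal cord through 10 genes of the vessel wall, chosen by name from the 54532 genes of the deposited count table. They were the selectins Selp and Sele, the adhesion molecules Icam1, Vcam1, Madcam1 and Pecam1, and the vessel genes Vwf, Ackr1, Lrg1 and Podxl. The genes were picked with their levels in these 4 groups already known, so every value and adjusted p on them below is a description and no independent support. Libraries had been made from spinal cord RNA of C57BL/6 mice aged 2 to 3 months, with 3 libraries in each of 4 groups. The control basal group was wt littermates without disease, and the cKO basal group was Drd2mGFAP cKO mice without disease. The control EAE and cKO EAE groups were the same genotypes at day 17 of experimental autoimmune encephalomyelitis (EAE), an immune attack on myelin that models multiple sclerosis. Drd2 encodes a dopamine receptor, and the cKO label names the promoter of GFAP, a gene of astrocytes that is also active in neural progenitors. As to the Cre line and the deleted part of Drd2, details are not given in the sources used here. Libraries carry numbers as biological replicates in the labels, and the p-values measure the spread between these libraries.

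Leukocytes leave the blood in steps, mostly through venules. Selectins on the vessel wall catch passing cells and let them roll, chemokines shown on the wall activate their integrins, and ICAM-1, VCAM-1 and MAdCAM-1 hold the integrins so that the cells stop and cross. Resting vessels of the central nervous system carry little of these molecules, and inflammatory cytokines induce several of them through the transcription factor NF-kB.

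Depth was similar across libraries, with totals of 15128913 to 17592105 counts. The library cKO basal 2 stood apart, with 17220 genes detected against 24303 to 26056 in the others and ribosomal protein genes at 5.68% of its counts against 0.879 to 1.80%. Cd74, a gene of antigen presentation, was at 6.56 CPM (reads scaled to the TMM-normalised library size) in cKO EAE 3 and at 339 to 2733 CPM in the rest of the EAE libraries. Drd2 itself was not lower under the cKO label, at 17.6 to 34.7 CPM in cKO basal against 19.4 to 26.5 in control basal, and at 6.72 to 19.4 in cKO EAE against 8.87 to 9.61 in control EAE. Counts of whole tissue cannot check a deletion limited to astrocytes. RNA of the Y-linked gene Ddx3y was absent from the basal counts (0 in each library) and at 70.3 to 77.0 CPM throughout EAE, so that EAE and sex cannot be told apart in any contrast of EAE with basal. The members' tests in cKO mice, and the counts of the lists that bear on them, are given with and without the 2 libraries that stood apart. All settings, also those of the members' tests, were chosen with earlier results of these data known. For the lists and the values scaled to vessel genes, this setting was added after seeing the data.

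The start regions of the most strongly induced adhesion genes are shown because their letters can be set beside the levels that follow. Windows of 250 bases before the RefSeq transcript start (GRCm38.p6) were searched for 6 of the 10 genes, namely Selp, Sele, Icam1, Madcam1, Ackr1 and Lrg1. For Vcam1, Pecam1, Vwf and Podxl no window was available, so their letters are not known here. Capitals mark letters that match GGNNNTTCC (a core of NF-kB sites), TTCNNNGAA (a STAT site) or TATAAA, on either strand. In Sele the first and second motif overlap and form 1 run of capitals.
Selp (chr1:164115014-164115263, plus strand): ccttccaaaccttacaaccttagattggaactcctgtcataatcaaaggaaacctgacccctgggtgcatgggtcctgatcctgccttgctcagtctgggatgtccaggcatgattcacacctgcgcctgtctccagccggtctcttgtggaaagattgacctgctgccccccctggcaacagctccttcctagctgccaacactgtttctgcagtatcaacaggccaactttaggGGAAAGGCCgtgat
Sele (chr1:164047984-164048233, plus strand): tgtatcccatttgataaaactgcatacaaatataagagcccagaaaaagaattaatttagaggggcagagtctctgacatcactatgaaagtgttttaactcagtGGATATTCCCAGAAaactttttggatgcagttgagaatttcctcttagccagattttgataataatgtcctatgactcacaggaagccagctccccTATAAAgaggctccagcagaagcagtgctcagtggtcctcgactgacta
Icam1 (chr9:21015690-21015939, plus strand): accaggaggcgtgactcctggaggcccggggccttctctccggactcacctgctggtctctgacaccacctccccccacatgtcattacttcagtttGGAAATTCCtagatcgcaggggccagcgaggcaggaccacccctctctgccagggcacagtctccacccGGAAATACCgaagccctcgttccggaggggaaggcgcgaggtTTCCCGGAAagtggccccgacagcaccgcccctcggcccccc

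The Selp window held the NF-kB letters 14 bases before the start. In Sele they stood 145 bases before it, the STAT letters 140 and TATAAA 49 bases before it. Icam1 held the NF-kB letters at 153 and 84 bases and the STAT letters at 42 bases before the RefSeq start, which lies upstream of the gene start in the deposited table. The NF-kB letters were present in 6 of 6 member windows and in 15.7% of all 32851 promoter windows. The STAT letters were in 2 member windows (7.02% of all) and TATAAA in 1 (12.4% of all). Ackr1, which did not pass the test in EAE, and Madcam1, which was barely counted, held the NF-kB letters too. In Lrg1 they stand 33 bases before the RefSeq start, inside the gene as the deposited table bounds it. A match is a description of letters and not of a bound site.

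The 2 selectins of the vessel wall were at or near 0 without disease and clearly counted in EAE. Selp (ENSMUSG00000026580) encodes P-selectin, which endothelial cells and platelets store and bring to the surface on activation. Levels are TMM-normalised CPM throughout. Selp had 0 counts in all 3 control basal libraries, and 0.116, 0 and 0.0595 CPM in cKO basal 1, 2 and 3. In EAE it was at 8.24, 25.7 and 28.8 CPM in control 1, 2 and 3, and at 9.59, 7.84 and 0.728 CPM in cKO 1, 2 and 3. Every EAE library was above every basal library, and the lowest of the 6 EAE values was that of cKO EAE 3. With the control basal group set to a floor of 3 counts in all, Selp was at least 361-fold higher in control EAE. In cKO mice the ratio over 3 basal counts was 91.9 (95% exact Poisson interval 31.5 to 446), and 131 (44.8 to 635) without cKO EAE 3. These bounds and intervals cover counting error only.

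Sele (ENSMUSG00000026582) encodes E-selectin, which endothelial cells make after stimulation by cytokines. It had 0 counts in 5 of 6 basal libraries and 1 count, or 0.0581 CPM, in cKO basal 1. In EAE it was at 3.63, 11.1 and 16.7 CPM in control 1, 2 and 3, and at 4.48, 5.09 and 1.03 CPM in cKO 1, 2 and 3. Again no EAE library overlapped with a basal library. The rise was at least 181-fold in control mice on the same floor, and the cKO ratio over 1 basal count was 160 (28.7 to 6325), or 215 (38.6 to 8493) without cKO EAE 3. Sele and Selp lie on the same strand of chromosome 1 (mm10), from 164048234 to 164057677 and from 164115264 to 164150026. An intergenic and an antisense transcript that overlap Selp, Gm16548 and Gm16587, held 17 and 11 counts in all libraries together.

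**Figure D1:**
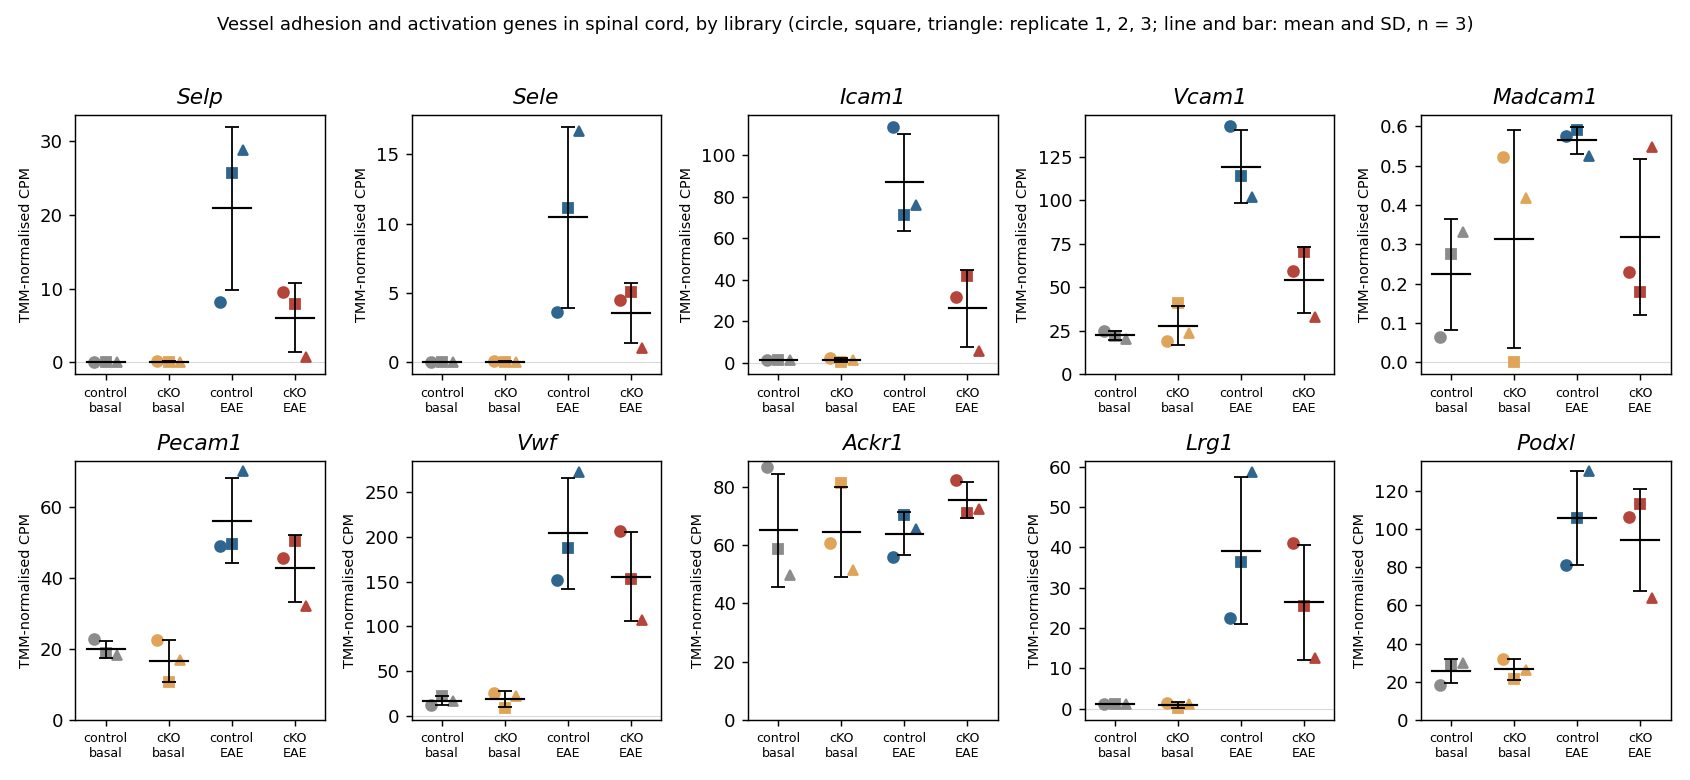
Level of each of the 10 genes (vertical axes, TMM-normalised CPM, scaled for each gene) in the 4 groups, with 1 point for each library and lines and bars at the mean and SD of 3 libraries. Selp and Sele ran from 0 in control basal to up to 28.8 and 16.7 CPM in control EAE, while Ackr1 stayed between 49.8 and 86.9 CPM in every library.

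The immunoglobulin-type adhesion molecules followed with smaller folds from measurable basal levels. Icam1 (ENSMUSG00000037405, chromosome 9, 21015985 to 21028817, plus strand) encodes ICAM-1, the ligand of the integrins LFA-1 and Mac-1. It was at 1.65, 1.49 and 1.55 CPM in control basal and at 2.21, 0.363 and 1.25 in cKO basal. In EAE it was at 114, 71.2 and 76.0 CPM in control and at 31.6, 41.8 and 5.59 in cKO mice. All EAE libraries were above all basal libraries, and all control EAE libraries were above all cKO EAE libraries. The log2 fold change of EAE over basal in control mice was 5.79 (SE 0.77).

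Vcam1 (ENSMUSG00000027962, chromosome 3, 116109949 to 116129688, minus strand) encodes VCAM-1, the ligand of the integrin VLA-4 on lymphocytes and monocytes. Its basal levels were 24.9, 21.7 and 20.1 CPM in control mice and 19.2, 40.8 and 23.6 in cKO mice, with the high value in the library that stood apart. In EAE it reached 143, 114 and 102 CPM in control mice and 59.2, 70.1 and 32.8 in cKO mice. The control groups did not overlap between states, while cKO EAE 3 lay below cKO basal 2. In control mice the log2 fold change was 2.42 (SE 0.34). Astrocytes, microglia and infiltrating myeloid cells can also express Icam1 and Vcam1, so whole-tissue levels do not assign them to vessels.

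Madcam1 (ENSMUSG00000020310, chromosome 10), the ligand of the gut-homing integrin that pairs Itga4 with Itgb7, was barely counted. It had 1 to 6 counts in control basal, 0 to 9 in cKO basal, 9 to 10 in control EAE and 3 to 9 in cKO EAE libraries. It passed the filter for low counts in no comparison and was not tested. On these few counts the control EAE libraries, at 0.524 to 0.591 CPM, lay above the control basal libraries, at 0.0635 to 0.331 CPM. The groups of all 3 libraries were apart in this way in 29.8% of genes tested. The cKO groups overlapped. Pecam1 (ENSMUSG00000020717, chromosome 11) encodes CD31, a junction protein of endothelial cells that platelets and leukocytes also carry. It was at 22.7, 18.9 and 18.2 CPM in control basal and at 22.5, 10.5 and 16.9 in cKO basal. In EAE it was at 49.0, 49.7 and 70.2 in control and at 45.6, 50.6 and 32.2 in cKO mice, above every basal library. Its log2 fold change in control mice, 1.497 (SE 0.29), was the smallest of the 8 members that rose.

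Among the other vessel genes, Vwf, Lrg1 and Podxl rose in control EAE and Ackr1 did not pass the test. Vwf (ENSMUSG00000001930, chromosome 6) encodes von Willebrand factor, which is stored with P-selectin in the granules of endothelial cells. Its basal levels were 11.6, 22.5 and 17.1 CPM in control mice and 25.4, 8.72 and 22.3 in cKO mice. In EAE they were 152, 188 and 272 in control and 206, 153 and 107 in cKO mice. The states did not overlap and the genotypes did, with a log2 fold change of 3.58 (SE 0.45) in control mice.

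Lrg1 (ENSMUSG00000037095, chromosome 17) encodes a secreted glycoprotein that promotes vessel growth and is also made by neutrophils. It was at 1.08, 1.16 and 1.21 CPM in control basal and at 1.45, 0.182 and 1.07 in cKO basal. In EAE it was at 22.5, 36.5 and 58.6 in control and at 41.2, 25.4 and 12.7 in cKO mice, again with no overlap between the states. The log2 fold change in control mice was 5.08 (SE 0.66). Podxl (ENSMUSG00000025608, chromosome 6), a sialomucin of the vessel lumen, was at 18.4, 28.6 and 29.9 CPM in control basal and at 32.1, 21.2 and 26.0 in cKO basal. It was at 81.4, 106 and 130 in control EAE and at 107, 113 and 63.9 in cKO EAE. All EAE libraries lay above all basal libraries, with a log2 fold change of 2.05 (SE 0.30) in control mice.

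Ackr1 (ENSMUSG00000037872, chromosome 1), the atypical chemokine receptor of venular endothelium, had similar levels in both states. It was at 86.9, 58.5 and 49.8 CPM in control basal and at 60.7, 81.3 and 51.4 in cKO basal. In EAE it was at 55.8, 70.2 and 65.6 in control and at 82.4, 71.1 and 72.4 in cKO mice. The states overlapped, and the log2 fold change in control mice was -0.03 (SE 0.24) with adjusted p = 0.966 by edgeR's test. The count of Ackr1 is uncertain, because 493 bases of the gene overlap on the same strand with Cadm3, an adhesion gene of neurons with 57683 counts in all. At basal Cadm3 was at 344 ± 85.8 CPM in control and 267 ± 171 CPM in cKO mice, and in EAE at 196 ± 25.3 and 321 ± 40.8 CPM (mean ± SD over 3 libraries). Its part in the Ackr1 count was not tested.

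Per kilobase of gene length, the order of levels differed between the states. In control basal Ackr1 led at 46.3 CPM per kb, followed by Podxl at 4.67, Pecam1 at 3.20, Vcam1 at 2.51 and Vwf at 1.06. Lrg1 was at 0.817, Icam1 at 0.358 and Madcam1 at 0.156 CPM per kb, and both selectins were at 0. In control EAE the order was Ackr1 at 45.5, Lrg1 at 27.8, Icam1 at 19.96 and Podxl at 19.3 CPM per kb. Vcam1 at 13.5, Vwf at 12.7, Pecam1 at 9.04, Selp at 4.74, Sele at 3.59 and Madcam1 at 0.393 CPM per kb came after them. Lrg1 and Icam1 thus moved from the lower end of the basal order to just behind Ackr1. At basal the library values of Podxl overlapped with those of Pecam1, and Vwf with Lrg1, while all other neighbours in the order were apart. In EAE each gene from Ackr1 to Pecam1 overlapped with the next in the order, as did Selp with Sele, while Pecam1 lay above Selp and Sele above Madcam1 in every library.

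Of the 9 members tested for EAE against basal in control mice, 8 rose and none fell at an adjusted p below 0.05. The 8 were Selp, Sele, Icam1, Vcam1, Pecam1, Vwf, Lrg1 and Podxl, with edgeR's adjusted p between 0.00318 and 0.00648. Of all 18601 genes tested, 12.1% rose and 5.05% fell in that comparison, 17.1% together. In the same 8 members all EAE libraries were above all basal libraries, against 29.8% of all genes tested. The median log2 fold change of the 9 was 3.58, against -0.01 over all genes, and stayed 3.58 with both selectins set to their lower bounds. Since the members had been chosen with this contrast known, nothing is read from these shares.

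In cKO mice all 9 tested members had fitted changes above 0, 8 had an unadjusted p below 0.05 (19.6% of all genes did), and 1 was called. Lrg1 rose, by 4.81 (SE 0.66) on the log2 scale with edgeR's adjusted p = 0.0439, where 0.0323% of all genes tested rose. Among the members that missed the threshold, the log2 fold changes were 4.32 (SE 0.73) for Icam1, 3.04 (SE 0.44) for Vwf, 1.84 (SE 0.30) for Podxl, 1.36 (SE 0.29) for Pecam1, 0.96 (SE 0.33) for Vcam1 and 0.22 (SE 0.24) for Ackr1. Adjusted p over all 8 that missed it, the selectins included, ran from 0.0689 for Vwf to 0.639 for Ackr1. The call of Lrg1 was lost when any control library was left out, and likewise without the first or the third cKO basal library or without the first or the second cKO EAE library. In 7 of the 9 members the cKO groups did not overlap, against 9.8% of all genes.

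Without cKO basal 2 and cKO EAE 3, 8 of 9 members rose in cKO mice, where 10.8% of 18956 genes rose. Icam1 then had a log2 fold change of 4.39 (SE 0.31) with adjusted p = 1.7e-06, and Vcam1 1.58 (SE 0.19) with adjusted p = 7.55e-05, by edgeR's test. Podxl was at 1.91 (adjusted p = 0.000175), Vwf at 2.90 (3.76e-05), Lrg1 at 4.70 (1.49e-05) and Pecam1 at 1.27 (0.0012). Ackr1 was the member not called, at 0.44 (SE 0.23) with adjusted p = 0.243. In control mice the same 8 members were called in this setting, where 24.9% of genes rose. The library cKO EAE 3 had been set apart by its low Cd74, a gene that was itself higher in EAE than at basal. That library was the lowest of the EAE libraries for 8 of 9 members. Its removal thus favours calls of a rise in cKO mice, and the adjusted p of this setting are descriptions only.

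**Figure D2:**
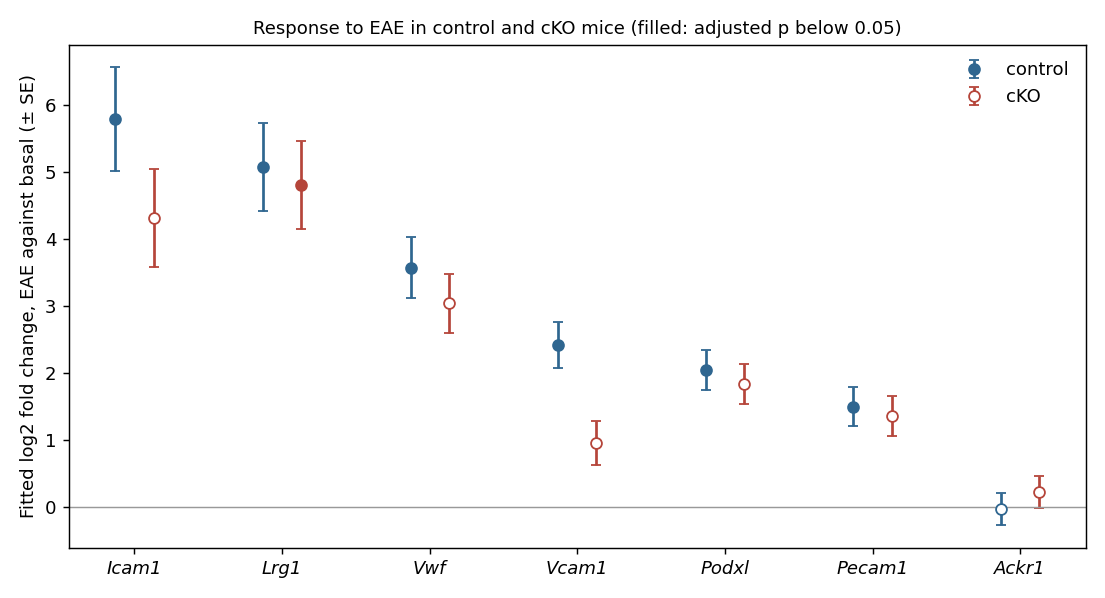
Fitted log2 fold change of EAE over basal (vertical axis, bars are SE) for the 7 members with basal counts that allow a fold, in control and cKO mice, with filled points at an adjusted p below 0.05. Vcam1 was at 2.42 in control and 0.96 in cKO mice, and Lrg1 at 5.08 and 4.81.

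The difference between both EAE responses was tested directly, and no member or other gene passed. The call share was 0% of 18601 genes at the threshold, with 1697 genes at an unadjusted p below 0.05 and 35 genes called by DESeq2's Wald test. Vcam1 was the 1 member with an unadjusted p below 0.05, at a difference of -1.47 (SE 0.46) on the log2 scale with adjusted p = 0.547 by edgeR's quasi-likelihood test. The difference was -1.48 (SE 0.94) for Icam1, -0.54 (SE 0.58) for Vwf, -0.27 (SE 0.83) for Lrg1, -0.21 (SE 0.41) for Podxl, -0.14 (SE 0.41) for Pecam1 and 0.25 (SE 0.34) for Ackr1. These intervals are wide, and a p above the threshold does not show that the genotypes responded alike. For the selectins no difference is given, because their basal counts of 0 to 3 leave the folds undefined.

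Within EAE no member passed the test between the genotypes, and Vcam1 and Icam1 had the smallest p. The log2 fold change of cKO over control was -1.11 (SE 0.28) for Vcam1, with adjusted p = 0.0566, and -1.69 (SE 0.64) for Icam1, with adjusted p = 0.115, by edgeR's quasi-likelihood test. Of 9 members tested 0 were called, where 7.67% of 17914 genes were called and 1.54% were lower, and 2 members, Icam1 and Vcam1, had an unadjusted p below 0.05, as did 35.9% of all genes. DESeq2's Wald test called Vcam1 alone of the members, and 16.7% of the 32378 genes with a count. Icam1 and Vcam1 were the 2 of 9 members in which every cKO library lay below every control library, as in 26.6% of all genes. Both counts of 2 lie near the shares of all genes and are not read as a result about the members. In Ackr1 every cKO library lay above, as in 21.2% of all genes, at a log2 fold change of 0.28 (SE 0.12, edgeR's adjusted p = 0.152). Cadm3, which shares bases with it, was higher in cKO EAE as well, at 0.75 (SE 0.14) with adjusted p = 0.044.

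Without cKO EAE 3 both Icam1 and Vcam1 were called lower in cKO EAE. Icam1 fell by 1.21 (SE 0.22) on the log2 scale with adjusted p = 0.0156, and Vcam1 fell by 0.85 (SE 0.15) with adjusted p = 0.0161, by edgeR's test. In that setting 9.1% of 18319 genes were lower and 9.11% higher. The selectins were lower without passing the test, with Selp at -1.75 (SE 0.83, adjusted p = 0.176) and Sele at -1.53 (SE 0.70, adjusted p = 0.164) over all EAE libraries. Leaving out cKO EAE 3 gave -1.22 (SE 0.47) for Selp and -1.09 (SE 0.53) for Sele. The remaining vessel genes differed less, with Lrg1 at -0.53 (SE 0.49), Pecam1 at -0.36 (SE 0.21), Vwf at -0.35 (SE 0.30) and Podxl at -0.13 (SE 0.26). Podxl was at 0.09 without cKO EAE 3.

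**Figure D3:**
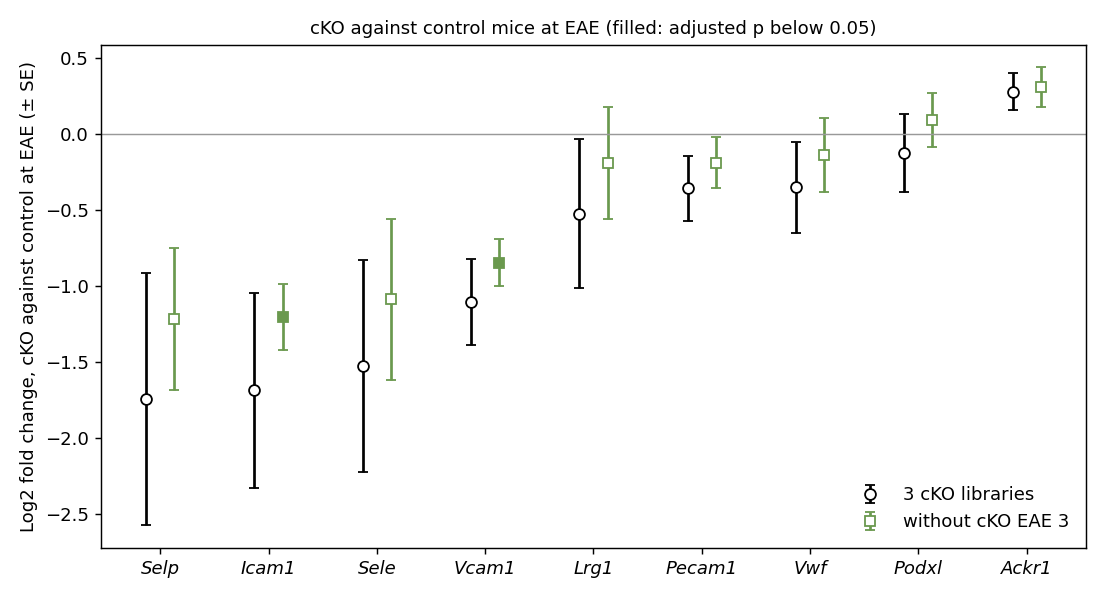
Log2 fold change of cKO over control within EAE (bars are SE) for the 9 members tested, with all 6 EAE libraries and without cKO EAE 3. Vcam1 and Icam1 passed the threshold in the second setting, at -0.85 and -1.21.

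At basal the 7 members tested showed no called difference between genotypes. Selp, Sele and Madcam1 were too low to be tested. All 7 had adjusted p of 0.997 to 1.00 by edgeR's test, and in none did the groups separate, against 2.14% of all genes with higher and 3.64% with lower cKO libraries. Across all 17133 genes tested 0% were called, 31 had an unadjusted p below 0.05, and DESeq2's Wald test called 1.

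The EAE libraries did not rank the members in the same way. Relative to the mean of its own basal group, cKO EAE 3 was raised 14.1-fold in Lrg1, 5.68-fold in Vwf, 4.38-fold in Icam1 and 2.42-fold in Podxl. It was at 1.93-fold in Pecam1, 1.18-fold in Vcam1 and 1.12-fold in Ackr1, and it was the lowest of the 6 EAE libraries for 8 of 9 members. Icam1 in the other EAE libraries was 45.6 to 72.9-fold above basal in control and 24.8 and 32.8-fold in cKO mice. Lrg1 in the other libraries was 19.5, 31.7 and 50.9-fold above basal in control and 45.7 and 28.1-fold in cKO mice. The library with little Cd74 thus kept a larger part of the Lrg1 and Vwf levels than of the Icam1 level. Among the control mice, EAE 1 had the highest Icam1 and Vcam1 and the lowest Selp, Sele, Lrg1, Vwf, Podxl and Pecam1.

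Genes of monocytes, macrophages and T cells were also higher in control EAE than in control basal. The summed level of 12 monocyte and macrophage genes was 6629, 4350 and 3779 CPM in control EAE 1, 2 and 3, and 956, 2007 and 131 CPM in cKO EAE 1, 2 and 3, against 47.8 to 82.7 at basal. Lyz2 and Fn1 held most of that sum, at means of 2047 and 1798 CPM in control EAE. Fn1 was already at 47.0 CPM in control basal, so the sum is weighted to these 2 genes. All 12 genes had values below 0 between genotypes within EAE, with a median of -2.26. Of the EAE libraries, control 1 was highest in Icam1, Vcam1 and that sum, and cKO 3 was lowest in all of them. In Selp, Sele, Pecam1, Vwf, Lrg1 and Podxl, control 1 was instead the lowest of the control EAE libraries. The 10 T cell genes summed to 114 to 123 CPM in control EAE and to 33.5, 55.2 and 5.59 CPM in cKO EAE. Their part in the Icam1 and Vcam1 levels was not tested. In bulk tissue, fewer cells of a type and less RNA per cell cannot be told apart.

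Genes of the leukocyte side of the adhesion pairs rose as well, but whole-tissue levels do not assign them to leukocytes. The 14 ligand genes included integrin subunits, the P-selectin ligand and enzymes that decorate it. They summed to 170 to 190 CPM in control basal, where Itgb1 alone was at a mean of 92.6 CPM. In control EAE 11 of the 14 rose and none fell, where 12.1% of all genes rose and 5.05% fell. The median log2 fold change was 3.90. Itgb2, the chain that LFA-1 and Mac-1 share, rose by 6.13 (SE 0.90). Itgam, the other chain of Mac-1, rose by 4.41 and Itgal, the other chain of LFA-1, by 8.64. Spn, a sialomucin that E-selectin binds, had a fitted change of 9.85, whose size depends on the prior count because control basal held 1 count. In cKO mice 0 of the 14 passed the test, where 0.0323% of all genes rose, and 13 had positive values with a median of 2.51. Without cKO basal 2 and cKO EAE 3, 11 of the 14 rose in cKO mice, where 10.8% of all genes rose, with a median of 2.81. Within EAE, 0 of 14 were called between genotypes, where 1.54% of all genes were lower and 6.13% higher. All 14 values were below 0, and the median was -1.49. Without cKO EAE 3, 9 of the 14 were lower in cKO mice, where 9.1% of all genes were lower, with a median of -1.06. The 4 smallest p-values belonged to Itga4 at -1.51 (SE 0.45), Itgb7 at -2.19 (SE 0.69), Itgb1 at -0.73 (SE 0.23) and Cd44 at -1.61 (SE 0.59).

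Vessel identity genes had smaller fitted changes than most of the adhesion genes. The 18 endothelial identity genes, such as Cldn5, Cdh5 and Flt1, summed to 604 to 655 CPM in control basal and 836 to 946 CPM in control EAE. In the cKO groups the sums were 560 to 959 and 783 to 934 CPM. The 959 was that of cKO basal 2, which stood apart, and cKO basal 1 and 3 were at 687 and 560 CPM. In control EAE 2 of the 18 rose (Eng at 1.26 and Ly6c1 at 0.78), 1 fell (Itm2a at -0.77), and the median was 0.55, where 12.1% of all genes rose and 5.05% fell. Without the 2 libraries that stood apart, 14 of the 18 rose in control mice and 9 in cKO mice, with medians of 0.56 and 0.69, where 24.9% and 10.8% of all genes rose. Set against the mean of these 18 genes in each library, control EAE exceeded control basal by 5.06 for Icam1, 4.24 for Lrg1, 2.98 for Vwf, 1.81 for Vcam1, 1.45 for Podxl and 0.88 for Pecam1 on the log2 scale. Ackr1 was at -0.59 on that scale. For Vcam1 in cKO mice the same difference was 0.09, against 0.96 unscaled, and it was 0.94 without cKO basal 2 and cKO EAE 3. The mean of the 18 genes in cKO basal 2 was 3.61 on the log2 scale, and 4.68 and 4.29 in cKO basal 1 and 3. For Icam1 in cKO mice the scaled difference was 3.23, and 3.70 without both libraries. Within EAE the cKO libraries differed from control on that scale by -2.07 for Icam1 and -1.15 for Vcam1, and by -1.27 and -0.92 without cKO EAE 3.

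By vessel segment, 0 of 8 arterial genes and 1 of 7 capillary genes (Slc16a1, a monocarboxylate transporter, at 1.21) passed the test in control EAE, with medians of -0.23 and -0.12, where 17.1% of all genes were called. These counts lie near that share. Of 7 venous genes outside the members 4 rose, with a median of 2.04, among them Lcn2 at 8.63, Il1r1 at 3.18 and Slc38a5 at 2.04. Lcn2 is also made by reactive astrocytes, so the list is not specific to veins. Of 13 tested genes of other endothelial adhesion and diapedesis steps, 4 rose and 1 fell. They included the junction gene F11r at 2.97, Cd34 at 1.74 and Nectin2 at 1.61, and the falling gene Cd99l2 at -0.83. Of 10 pericyte and smooth muscle genes 0 passed, with a median of 0.54.

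Within EAE, the genes of the vessel lists that passed between genotypes were higher in cKO mice, where 6.13% of all genes were higher. They were Itm2a at 0.63 and Slco1a4 at 0.54 of the 18 identity genes. Of the 7 capillary genes they were Slc22a8 at 1.59 and Spock2 at 0.87. Of the 13 adhesion and diapedesis genes tested they were Cd99l2 at 0.69 and Mcam at 0.87. Spock2 was at 1125 CPM in control basal, against 68.6 CPM for the identity gene Flt1, so its whole-tissue level is not assigned to capillaries. None of the arterial and venous genes passed. All calls of this comparison were lost when any 1 control EAE library or cKO EAE 1 was left out. Of 8 neuron genes 5 were higher as well, with sums of 3943 to 5276 CPM in cKO EAE and 2144 to 2767 CPM in control EAE, and their part in the vessel values was not tested. Without cKO EAE 3, 1 gene each of the identity, adhesion and diapedesis, capillary and venous lists was lower in cKO mice (Cldn5, Nectin2, Slc16a1 and Lcn2). In that setting 9.1% of all genes were lower. In cKO EAE against basal 0 genes of these vessel lists were called, where 0.0323% of all genes rose. Without both libraries that stood apart, 5 of 7 venous, 1 of 7 capillary and 0 of 8 arterial genes rose there, where 10.8% of all genes rose.

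Platelets hold Selp, Vwf and Pecam1 products. Their 9 marker genes summed to 6.31 to 12.3 CPM in all 12 libraries, and Gp1bb was at 0 in control basal and control EAE. Of the 4 tested, 1 rose in control EAE (Pf4, which macrophages also express, at 5.18), where 12.1% of all genes rose. The part of platelets in the Selp, Vwf and Pecam1 levels was not tested. The neutrophil genes, which bear on Lrg1, summed to 252 to 285 CPM in control EAE and 69.9 to 219 in cKO EAE, against 21.6 to 157 at basal. The 157 was that of cKO basal 2, and the next highest basal sum was 47.1 in control basal 1. Csf3r alone was at a mean of 126 CPM in control EAE and 43.2 CPM in cKO EAE. Of 10 neutrophil genes tested between genotypes within EAE, 5 had values above 0. Their median was -0.07, and 0.18 without cKO EAE 3. Of the 10 neutrophil genes tested, 3 rose in control EAE (Mmp8, Csf3r and Cxcr2), where 12.1% of all genes rose. Without the 2 libraries that stood apart 9 of 11 rose in control EAE, where 24.9% of all genes rose. Their part in the Lrg1 level was not tested.

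**Figure D4:**
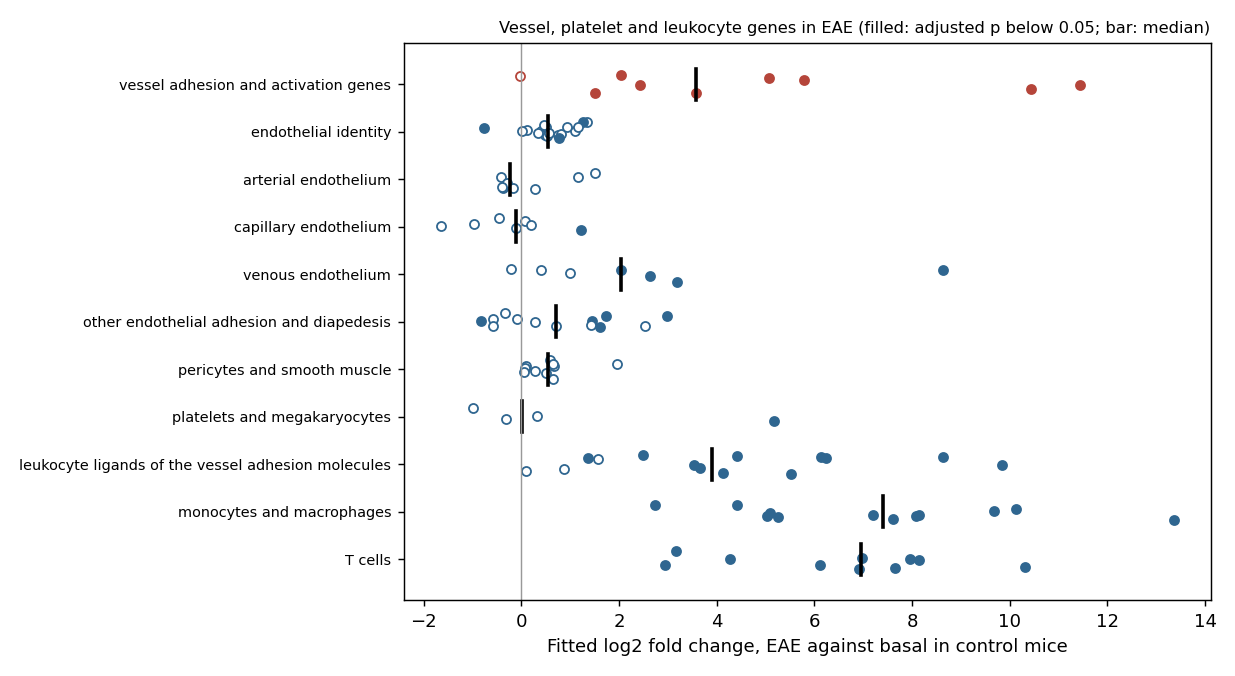
Fitted log2 fold change of EAE over basal in control mice, 1 point for each tested gene, for the members and lists of vessel, platelet and leukocyte genes (filled at adjusted p below 0.05, black bar at the median). The members had a median of 3.58, the endothelial identity genes 0.55 and the leukocyte ligands 3.90. Points of genes with 0 basal counts, such as Selp and Sele, depend on the prior count.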

How the data were processed

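Spinal cord RNA was measured in 12 libraries by RNA sequencing. The authors deposited raw read counts per gene, and per the submitters' processing notes HISAT2 2.0.5, featureCounts 1.5.0-p3 and build mm10 had been used. For the annotation release, the strand setting, multi-mapping reads and the kit, details are not given in the sources used here, and overlapping genes are therefore uncertain. Totals were 15128913 to 17592105 counts, and all columns matched labelled samples. The members, lists and settings were chosen with earlier results of these data known.

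Counts were tested with edgeR 4.0.16 (limma 3.58.1, R 4.3.3), with TMM factors, filterByExpr, the quasi-likelihood F test and Benjamini-Hochberg adjustment over all genes tested, at a threshold of 0.05. The SE was the fold change divided by the square root of F. Both EAE responses and their difference came from 1 fit of 12 libraries, and the genotypes were compared within 6 libraries of a state. Likeness used log2 CPM with a prior count of 2. All 10 members were named, with up to 4 tested genes of smallest p in each list described and 3 genes most like each member. There were 17 lists with 169 genes. The lists of erythrocytes, meninges, lymphatic vessels, astrocytes and neurons had 0, 5, 1, 3 and 0 genes higher and 0, 0, 0, 1 and 4 lower in control EAE. Tried instead were size factors of DESeq2, no filter, the replicate number as a block, DESeq2's Wald test (1.42.0), other sets of libraries, and leaving out each library.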

Additional observations from a re-analysis of the deposited data

How the results depend on the processing

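In control mice 8 members rose under every setting tried, while the count of all genes called, 3183, was 1724 to 2073 without any 1 control library and 8166 without cKO basal 2, and was 8673 without cKO basal 2 and cKO EAE 3 and 8149 in the 6 libraries alone. In cKO mice (7 genes and 1 member) no filter gave 493 genes and 7 members, DESeq2's Wald test 1173 and 7, leaving out both libraries 2715 and 8, the 6 libraries alone 0 and 0, and leaving out 1 library 5 to 1075 genes and 0 to 7 members (2 members without cKO basal 2, 1075 genes and 7 members without cKO EAE 3). For the genotypes within EAE (1374 genes and 0 members) no filter gave 1 member, DESeq2's Wald test 5400 genes and 1 member, all 12 libraries in 1 fit 0 genes, leaving out both libraries 3336 and 2, and leaving out 1 library 0 to 3418 genes and 0 to 2 members. The 2 members were called without cKO EAE 3 and 1 of them without cKO EAE 2, and the count of genes was 0 without any 1 control EAE library or cKO EAE 1. DESeq2's Wald test called 1 gene at basal and 35 in the difference between the responses. Same-numbered libraries did not deviate together (r of -0.458 to 0.371 over 18 pairs). The replicate block gave 0 members in cKO mice, 0 genes within EAE and an Ackr1 value of 0.010 at basal.

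Directions turned only in values far from the threshold. In control EAE against basal, Ackr1 was at 0.017 with DESeq2's size factors, at 0.019 with its Wald test and at -0.22 to 0.24 with 1 library left out. At basal, Ackr1 was at 0.031 with size factors. With 1 library left out, the basal genotype values ran from -0.21 to 0.26 for Ackr1, -0.13 to 0.48 for Vwf, -0.14 to 0.18 for Podxl, -0.92 to 0.15 for Icam1, -0.054 to 0.54 for Vcam1 and -0.83 to 0.13 for Lrg1. Without both libraries that stood apart they were 0.15 for Icam1, -0.054 for Vcam1 and 0.13 for Lrg1. The difference between the responses ran from -0.0061 to 0.44 for Ackr1, -0.39 to 0.15 for Pecam1, -0.74 to 0.22 for Lrg1 and -0.36 to 0.013 for Podxl. Within EAE, Podxl ran from -0.29 to 0.092, and was at 0.092 without both libraries. The causes were not tested.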

Other observations

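The genes whose levels ran most like each member across the 12 libraries were named by Pearson's r of log2 CPM over 15179 genes searched. The libraries fall into 2 states that lie apart, and r is given as a description only. Selp ran closest to Osmr (the oncostatin M receptor, r = 0.992), Serpina3m (0.989) and Cyp1b1 (0.986). Sele ran closest to Osmr (0.990), Ptgs2 (0.984) and Cyp1b1 (0.981). Icam1 was closest to Tgfbr2 (0.996), Il2rg (0.993) and Gsdmd (0.993), and Vcam1 to Pirb (0.988), Elk3 (0.987) and Nod2 (0.987). Vwf, Lrg1 and Podxl each had Lox and Lama4 among their 3 closest genes, with r of 0.971 to 0.984. Pecam1 was closest to Phf11d (0.985), Slfn4 (0.984) and Ehd4 (0.980). Ackr1 had lower values, led by Ramp2 (0.900), Lypla1 (0.879) and Cd24a (0.875).

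Of 15 cytokines and receptors that act on endothelium, 14 rose in control EAE with a median log2 fold change of 3.64. Osmr rose by 3.64 (SE 0.45), the TNF receptor gene Tnfrsf1b by 4.72, Il1a by 6.43 and Il6ra by 2.98, where 12.1% of all genes rose. In cKO mice 0 of the 15 were called, where 0.0323% of all genes rose, and the median was 2.53, or 2.35 with genes of 0 basal counts at their bound. Without cKO basal 2 and cKO EAE 3, 11 of the 15 rose in cKO mice, where 10.8% of all genes rose. Within EAE, Lta was lower in cKO mice at -2.17 (SE 0.47) with adjusted p = 0.0479, and Lifr was higher at 0.58 (SE 0.12) with adjusted p = 0.0476, by edgeR's quasi-likelihood test. Without cKO EAE 3, 10 of the 15 were lower in cKO mice and 1 higher, where 9.1% of all genes were lower.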
